A study of Mus musculus with 6 samples.

Results

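The nuclear genes for the subunits of respiratory complexes II, III, IV and V were examined in kidneys of mice that overexpress adiponectin in the tubule. Members were the protein-coding genes of the deposited table whose GENCODE M21 symbol is *Sdha*, *Sdhb*, *Sdhc* or *Sdhd*, or begins with Uqcr, with Cox and a digit between 4 and 8, or with Atp5. The rule gave 48 genes of the 54532 in the table, of which 4 belong to complex II, 8 to complex III, 18 to complex IV and 18 to complex V. A filter on low counts left 44 of them. The other 4 held at most 1 read over all 6 libraries: *Cox7b2* and *Cox8b* had 1 read each, and *Cox8c* and a read-through transcript that shares exons with *Atp5o* (ENSMUSG00000116933) had 0. For a gene with 0 reads this allows up to 0.0267 CPM over the 6 libraries pooled, for counting error only. CPM are reads scaled to a common library total, with no division by length. *Cyc1*, *Ndufa4* and *Usmg5*, whose proteins belong to complexes III, IV and V, do not carry such a symbol and are counted with the partner genes.

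Controls were KsprtTA mice, which carry the tetracycline-controlled activator under a kidney-specific promoter but no adiponectin transgene, and which the sample labels call wild type. KSPAPN mice carry the same activator together with TRE-Adiponectin, so that doxycycline induces adiponectin in the tubular epithelium, proximal tubule and collecting duct included. Both groups received doxycycline at 600 mg/kg in chow for 4 days, and both were male mice of the C57BL/6 background. Age was not given in the sources used here. RNA was taken from the whole kidney and not from sorted tubules, 3 mice were pooled in each library, and there were 3 libraries per group, so that errors below are spreads between pools. In whole tissue, fewer cells of a type and less RNA per cell cannot be told apart.

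Complex II (succinate dehydrogenase) passes electrons from succinate to ubiquinone, complex III (the cytochrome bc1 complex) passes them from ubiquinol to cytochrome c, and complex IV (cytochrome c oxidase) passes them to oxygen. Complexes III and IV pump protons across the inner mitochondrial membrane, and complex V (ATP synthase) lets the protons back through its c ring to make ATP. Complex II is encoded by nuclear genes alone, while the other complexes join nuclear subunits to a few subunits encoded by mitochondrial DNA. The proximal tubule and the thick ascending limb are known to be rich in mitochondria, which supply the ATP for reabsorption.

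The 6 libraries held 17183358 to 20871173 counted reads. *Adipoq*, the overexpressed gene, was at 0.0781, 0 and 0.0824 FPKM in Control. In KSPAPN it was at 766, 693 and 937 FPKM (edgeR, adjusted p = 2.97e-09), as the labels say. FPKM are fragments scaled by gene length and by 1 factor per library, a level per length. The labels give kidney as tissue, while their text on RNA extraction names liver. Proximal tubule markers were high, with *Slc34a1* at 1212 ± 136 FPKM in Control (SD, n = 3). The hepatocyte marker *Alb* was at 2.05 ± 0.791 FPKM in Control and at 0.275, 4.46 and 4.39 FPKM in the KSPAPN libraries. The library of KSPAPN replicate 1 was the largest, and several members stood apart in it, as given beside them.

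Of the 44 members tested, 42 were lower in KSPAPN and 2 were higher, whereas 48.1% of all 16017 genes tested were lower. Under the alternative settings between 35 and 43 of these members were lower. The median log2 fold change (KSPAPN minus Control) was -0.26 over the members and 0.012 over all genes tested. At an adjusted p under 0.05 (edgeR, two-sided, Benjamini-Hochberg over all genes tested), 3 members fell, 1 each of complexes II, III and V, where 2.25% of all genes tested fell. These were *Sdhb*, *Uqcrc1* and *Atp5g3*. No member rose by edgeR or by DESeq2, with 0 at an adjusted and 0 at an unadjusted p under 0.05. DESeq2 gave no adjusted p for *Cox4i2* and *Cox6a2*. Of all genes tested, 0.393% rose by edgeR and 1.22% by DESeq2 at an adjusted p, and 7.52% and 6.42% were higher at an unadjusted one. At an unadjusted p under 0.05, 29 members were lower, or 65.9%, where 11.2% of all genes tested were. In 31 members every KSPAPN library was below every Control library in FPKM, which held for 13.5% of all genes tested, and in 0 members it was the reverse, against 10.8%.

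The differences were small. All 38 members with a mean count of at least 1000 were lower, with differences from -1.52% to -32.7%. Of them, 27 passed an unadjusted p of 0.05, where 11.2% of all genes tested were lower. DESeq2 called 14 members lower at an adjusted p under 0.05, where it called 5.11% of genes, with 1 in complex II, 5 in complex III, 2 in complex IV and 6 in complex V. The number called by edgeR depended on single libraries. It was 0 without Control replicate 1 or KSPAPN replicate 3, 1 when Control replicate 2 was omitted and 10 when KSPAPN replicate 1 was. The share of all genes called lower moved the same way, to 0.206%, 0.366%, 0.6998% and 3.47% in that order. At an unadjusted p 18 members were lower without KSPAPN replicate 3, where 8.67% of all genes were, and also 18 when libraries were scaled by total counts alone, where 7.65% were and the medians of the members and of all genes were -0.20 and 0.081.

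**Figure D1:**
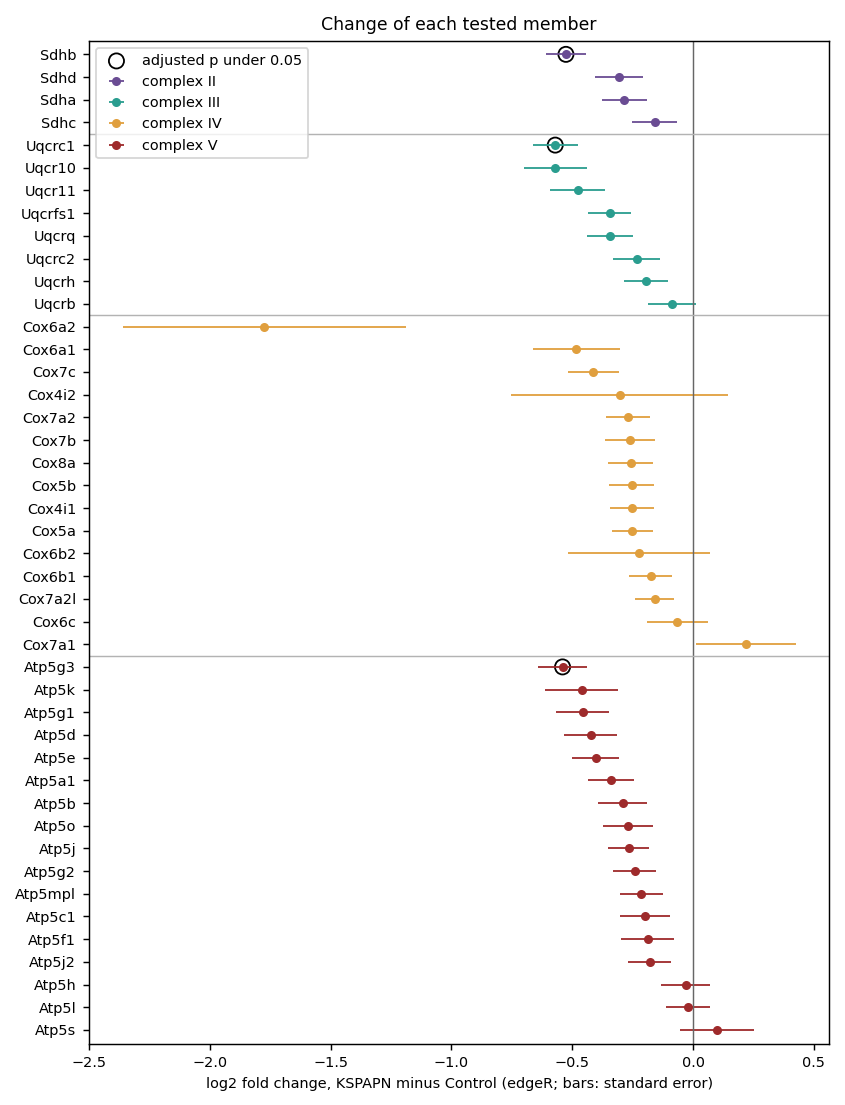
Log2 fold change (KSPAPN minus Control) on the horizontal axis for each of the 44 members tested, grouped by complex and ordered by value, with bars for the standard error from edgeR. The 3 ringed members passed an adjusted p of 0.05, and 42 of the 44 points lie left of 0.

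Nuclear genes of the respiratory chain are known to be bound near their start sites by NRF1, by GABPA and other ETS factors, by estrogen-related receptors (ERR) and by YY1. The bases that precede the first annotated start of each of the 3 genes that fell are given here 5′ to 3′ on the strand of the gene, from RefSeq promoter sequences on GRCm38.p6, with letters that match a searched motif in capitals. The *Sdhb* bases lie at chr4:140961083-140961202 (plus strand) and the *Uqcrc1* bases at chr9:108936513-108936632 (plus strand), and neither stretch holds a match. Those of *Atp5g3* lie at chr2:73911327-73911446 (minus strand) and hold the ERR letters on the opposite strand. For *Sdhb*, 30 bases around an NRF1 match at chr4:140961206-140961235 are added, which lie between the GENCODE start and the RefSeq start.
Sdhb: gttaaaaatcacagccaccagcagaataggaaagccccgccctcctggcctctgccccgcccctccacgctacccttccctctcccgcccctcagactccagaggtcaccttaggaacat
Sdhb NRF1 match: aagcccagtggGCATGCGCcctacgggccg
Uqcrc1: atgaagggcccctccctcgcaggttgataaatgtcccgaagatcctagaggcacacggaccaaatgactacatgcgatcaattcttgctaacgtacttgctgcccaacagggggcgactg
Atp5g3: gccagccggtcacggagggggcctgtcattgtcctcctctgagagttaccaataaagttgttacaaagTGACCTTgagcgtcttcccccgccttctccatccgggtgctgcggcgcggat

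Counted from the RefSeq start, the NRF1 letters of *Sdhb* began at -54 and the ERR letters of *Atp5g3* at -52. *Sdhb* also held the ETS letters at 7, and *Uqcrc1* held the NRF1 letters after its start, at 31 and 33, which is a single palindrome read on both strands. A promoter window (250 bases before to 50 after the most upstream RefSeq start) was matched for 36 of the 48 members. *Sdhc*, *Uqcrb*, *Uqcrc2*, *Uqcrq*, *Cox4i1*, *Cox4i2*, *Cox6a2*, *Cox6c*, *Cox8c*, *Atp5a1*, *Atp5mpl* and the *Atp5o* read-through were not matched. Searched on both strands, GCATGCGC (NRF1) was in 19.4% of the members' windows and in 2.8% of all 27025 windows, or 5.04% of those of genes tested. CCGGAAG (ETS, GABPA) was in 30.6%, 9.14% and 17.2%, AAGGTCA (ERR) in 13.9%, 4.65% and 3.28%, and AAGATGGC (YY1) in 5.56%, 2.87% and 4.4%. A match of letters is not a bound site, and the windows of members were not compared by whether the gene fell.

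All 4 genes of complex II were lower, with a median log2 fold change of -0.30, and *Sdhb* fell. *Sdhb* (chromosome 4, 140961203 to 140979193 on GRCm38) encodes the iron-sulfur subunit that carries electrons from the flavin to ubiquinone. Its level was 148, 148 and 143 FPKM in the Control libraries and 96.7, 101 and 106 FPKM in the KSPAPN libraries. The spread within each group was small and the gap between the groups was several times as wide, with no overlap. The gene fell by 30.6%, a log2 fold change of -0.53 (SE 0.084, adjusted p = 0.0138 with edgeR). Omitting any 1 library left it between -0.56 and -0.48. The call was lost when Control replicate 1 was omitted (adjusted p = 0.0793 with edgeR), when Control replicate 2 was (adjusted p = 0.0565) and when KSPAPN replicate 3 was (adjusted p = 0.0708).

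*Sdha* encodes the flavoprotein that oxidizes succinate and sits beside the *Sdhb* protein in the matrix arm. It was at 199.8, 198 and 179.8 FPKM in Control and at 149.8, 165 and 158 FPKM in KSPAPN, again without overlap. The log2 fold change was -0.28 (SE 0.093, edgeR adjusted p = 0.137), past an unadjusted p of 0.05 and not past the adjusted one. The membrane anchors *Sdhd* and *Sdhc*, which hold the ubiquinone site, had log2 fold changes of -0.31 (SE 0.098) and -0.16 (SE 0.092). *Sdhc*, whose value lay nearest to 0 in the complex, was at 109.6, 116 and 101 FPKM in Control and 90.2, 101 and 99.6 FPKM in KSPAPN. Its groups overlapped, since KSPAPN replicate 2 reached the lowest Control library, and without KSPAPN replicate 1 its log2 fold change was -0.097.

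In complex III all 8 genes were lower, with a median of -0.35. In 7 of them every KSPAPN library was below every Control library in FPKM, which held for 13.5% of all genes tested. *Uqcrc1* (chromosome 9, 108936633 to 108949623), which encodes core protein 1 on the matrix side of the complex, was at 131, 115 and 117 FPKM in Control and at 84.1, 82.2 and 76.9 FPKM in KSPAPN. Every KSPAPN library lay far below the lowest Control library. The gene fell by 32.7%, a log2 fold change of -0.57 (SE 0.094, edgeR adjusted p = 0.0163). It was called in 14 of the 16 alternative settings. The call was lost when Control replicate 1 (adjusted p = 0.0909 with edgeR) or KSPAPN replicate 3 (adjusted p = 0.0928) was omitted. The gene for the other core protein, *Uqcrc2*, had a log2 fold change of -0.23 (SE 0.098, adjusted p = 0.237) and of -0.15 without KSPAPN replicate 1.

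*Uqcrfs1*, for the Rieske iron-sulfur protein that takes electrons from ubiquinol, was at 306, 337 and 314 FPKM in Control and at 245, 258 and 247 FPKM in KSPAPN. The groups were apart, and the log2 fold change was -0.35 (SE 0.087, adjusted p = 0.0676 with edgeR and 0.0120 with DESeq2). The small subunits ranged widely. *Uqcr10* had a log2 fold change of -0.57 (SE 0.13), as large as that of *Uqcrc1* but with a wider spread between libraries and an adjusted p of 0.0508 with edgeR. *Uqcr11*, *Uqcrq* and *Uqcrh* lay between -0.48 and -0.20.

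*Uqcrb*, for the subunit that binds ubiquinone beside cytochrome b, had the value nearest to 0 in complex III. It was at 178, 182 and 173 FPKM in Control and 144, 179.9 and 176 FPKM in KSPAPN. Only KSPAPN replicate 1 was low, and the other KSPAPN libraries were within the Control range. The log2 fold change of -0.087 (SE 0.098, edgeR adjusted p = 0.682) became 0.019 without that library.

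Complex IV had the median nearest to 0 among the complexes, -0.25. Of its 15 genes tested, 14 were lower, against 48.1% of all genes tested. At an unadjusted p under 0.05, 9 of its genes were lower, against 11.2% of all genes tested. None passed an adjusted p with edgeR, where the lowest was 0.0744 for *Cox7c*, while DESeq2 called *Cox7c* and *Cox6a1*. The ubiquitous isoforms were 10 genes, of which all were lower and 8 passed an unadjusted p of 0.05, with a median of -0.26. *Cox4i1*, for the largest nuclear subunit, was at 514, 483 and 500.1 FPKM in Control and 430.5, 428 and 394 FPKM in KSPAPN, with a log2 fold change of -0.25 (SE 0.092, adjusted p = 0.176). *Cox5a*, for the subunit that binds the *Cox4i1* protein on the matrix side, was at 95.5, 94.8 and 95.4 FPKM in Control and 84.2, 78.6 and 76.1 FPKM in KSPAPN. The Control libraries of *Cox5a* were nearly equal, the KSPAPN libraries were all below them, and the log2 fold change was -0.25 (SE 0.086, adjusted p = 0.149).

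*Cox8a*, the ubiquitous form of the smallest subunit, had the highest level of all members. It was at 1099, 1139 and 1129.9 FPKM in Control and at 992, 938 and 874 FPKM in KSPAPN, a log2 fold change of -0.26 (SE 0.093, adjusted p = 0.172). The muscle form *Cox8b* and the testis form *Cox8c* were at or under 1 read, so no share was computed for them. *Cox6b1*, for a subunit on the cytochrome c side, was at 399.8, 401 and 399 FPKM in Control and 320.5, 372 and 366 FPKM in KSPAPN, a log2 fold change of -0.18 (SE 0.088, adjusted p = 0.322), and of -0.10 without KSPAPN replicate 1. *Cox5b*, *Cox7b* and *Cox6c* lay between -0.26 and -0.066, with *Cox6c* overlapping between the groups. Without KSPAPN replicate 1, *Cox7b* was at -0.16 and *Cox6c* changed sign, to 0.077.

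*Cox6a1*, the non-muscle form of a subunit at the dimer contact, had the largest standard error among the members with a mean count of at least 1000. Its level was 995, 787 and 1004 FPKM in Control and 867, 558 and 555 FPKM in KSPAPN. KSPAPN replicate 1 lay inside the Control range and the other KSPAPN libraries lay well below it. The log2 fold change was -0.48 (SE 0.18, edgeR adjusted p = 0.183), and -0.72 without KSPAPN replicate 1 (adjusted p = 0.0116). With 62.7% its transcript had one of the highest GC contents among the members.

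The isoforms of complex IV that are known from other tissues were low. *Cox6a2*, the heart and muscle form, held 21, 9 and 33 reads in Control and 5, 5 and 11 reads in KSPAPN, or 1.67, 0.763 and 2.76 FPKM in Control and 0.316, 0.402 and 0.781 FPKM in KSPAPN. The groups overlapped, and the log2 fold change of -1.77 (SE 0.59, adjusted p = 0.137) rests on these few reads. *Cox4i2*, known from lung and as a hypoxia-responsive form, was at 1.23, 0.585 and 1.30 FPKM in Control and 0.763, 0.903 and 0.857 FPKM in KSPAPN. *Cox6b2*, the testis form, was at 3.94, 3.07 and 3.75 FPKM in Control and 3.37, 1.88 and 3.88 FPKM in KSPAPN. Both genes overlapped between the groups. Their log2 fold changes were -0.30 (SE 0.45) and -0.22 (SE 0.29), each smaller than its standard error. That of *Cox6b2* was 0.024 without KSPAPN replicate 2 and -0.43 without KSPAPN replicate 3, and that of *Cox4i2* ran from -0.58 without Control replicate 2 to -0.11 without Control replicate 3.

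*Cox7a1*, the heart and muscle form of subunit VIIa, was the only complex IV gene with a higher value in KSPAPN. It was at 19.2, 15.2 and 18.8 FPKM in Control and 20.8, 15.2 and 25.5 FPKM in KSPAPN, a log2 fold change of 0.22 (SE 0.21, adjusted p = 0.615) with overlapping groups. The log2 fold change was 0.034 when KSPAPN replicate 3 was omitted and 0.12 when Control replicate 2 was, and it was 0.39 when KSPAPN replicate 2 was. The ubiquitous form *Cox7a2* was at 176, 194 and 205 FPKM in Control and 156, 155 and 164 FPKM in KSPAPN, without overlap, a log2 fold change of -0.27 (SE 0.091, adjusted p = 0.145). *Cox7a2l*, whose protein is known as a factor that joins complexes III and IV in supercomplexes, was at 99.6, 99.0 and 102 FPKM in Control and 90.2, 91.8 and 85.8 FPKM in KSPAPN, a log2 fold change of -0.16 (SE 0.081, adjusted p = 0.328).

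Complex V had 16 of 17 genes lower, against 48.1% of all genes tested, with a median of -0.27. At an unadjusted p under 0.05, 11 of its genes were lower, against 11.2% of all genes tested. The 5 genes of the catalytic head and central stalk had a median of -0.34. All of them had KSPAPN libraries below every Control library in FPKM, which held for 13.5% of all genes tested. *Atp5a1*, for the alpha subunit, was at 693, 656 and 650.5 FPKM in Control and 520.4, 525 and 528 FPKM in KSPAPN, a log2 fold change of -0.34 (SE 0.096, adjusted p = 0.0953 with edgeR and 0.00663 with DESeq2). *Atp5b*, for the catalytic beta subunit, was at 692, 699 and 656 FPKM in Control and 528, 575 and 565 FPKM in KSPAPN, a log2 fold change of -0.29 (SE 0.10, adjusted p = 0.157 with edgeR and 0.0378 with DESeq2). The KSPAPN libraries of *Atp5a1* were within a few FPKM of each other, and those of *Atp5b* spread further without reaching Control.

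*Atp5c1*, for the gamma subunit that turns inside the head, was at 247, 244 and 236 FPKM in Control and 181, 231 and 219.9 FPKM in KSPAPN. KSPAPN replicate 1 was the lowest and KSPAPN replicate 2 nearly reached Control, and the log2 fold change was -0.20 (SE 0.10, adjusted p = 0.341) and -0.087 without KSPAPN replicate 1. *Atp5d* and *Atp5e*, for the delta and epsilon subunits of the central stalk, had log2 fold changes of -0.42 (SE 0.11) and -0.40 (SE 0.097).

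The c ring, which turns as protons pass, is built from identical mature subunits encoded by *Atp5g1*, *Atp5g2* and *Atp5g3*, and its genes had the lowest median of the groups in complex V, -0.46. *Atp5g3* (chromosome 2, 73908447 to 73911326, minus strand) was at 283, 251 and 252 FPKM in Control and 195, 168 and 175 FPKM in KSPAPN. Control replicate 1 was the highest library and all KSPAPN libraries were below Control. The gene fell by 31.2%, a log2 fold change of -0.54 (SE 0.10, adjusted p = 0.0256), and was called in 7 of the 16 alternative settings. With any library other than KSPAPN replicate 1 left out, its adjusted p was between 0.0516 (without Control replicate 3) and 0.139 (without Control replicate 1), with 0.0624 without Control replicate 2, 0.0755 without KSPAPN replicate 2 and 0.118 without KSPAPN replicate 3.

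*Atp5g1* was at 56.4, 50.5 and 55.2 FPKM in Control and 44.6, 35.8 and 37.1 FPKM in KSPAPN, a log2 fold change of -0.46 (SE 0.11, adjusted p = 0.0568 with edgeR and 0.00390 with DESeq2), and without KSPAPN replicate 1 the edgeR value was 0.0116. *Atp5g2* was at 80.2, 74.7 and 75.0 FPKM in Control and 68.3, 65.6 and 59.7 FPKM in KSPAPN, a log2 fold change of -0.24 (SE 0.09, adjusted p = 0.183). Neither gene had overlapping groups.

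The peripheral stalk, which holds the head still, had 4 genes with a median of -0.23. *Atp5o*, *Atp5j* and *Atp5f1* had log2 fold changes of -0.27, -0.27 and -0.19, and *Atp5h* one of -0.031 (SE 0.10) with overlapping groups. Omitting KSPAPN replicate 1 moved *Atp5f1* to -0.087, and omitting Control replicate 2 moved it to -0.11. The 4 small membrane subunits had a median of -0.20 and ranged from -0.46 (SE 0.15) for *Atp5k* to -0.022 (SE 0.092) for *Atp5l*, with *Atp5mpl* and *Atp5j2* at -0.21 and -0.18. Without KSPAPN replicate 1 *Atp5mpl* was at -0.14. *Atp5h* and *Atp5l* changed sign without that library (0.049 and 0.041), without Control replicate 2 (0.011 and 0.038) and when libraries were scaled by total counts alone (0.035 and 0.046). *Atp5s*, for coupling factor B, was the only complex V gene with a higher value in KSPAPN. It was at 5.90, 8.23 and 6.67 FPKM in Control and 7.14, 7.16 and 7.88 FPKM in KSPAPN, with overlapping groups and a log2 fold change of 0.099 (SE 0.15, adjusted p = 0.778), which was -0.0067 without Control replicate 1 and 0.24 without Control replicate 2.

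**Figure D2:**
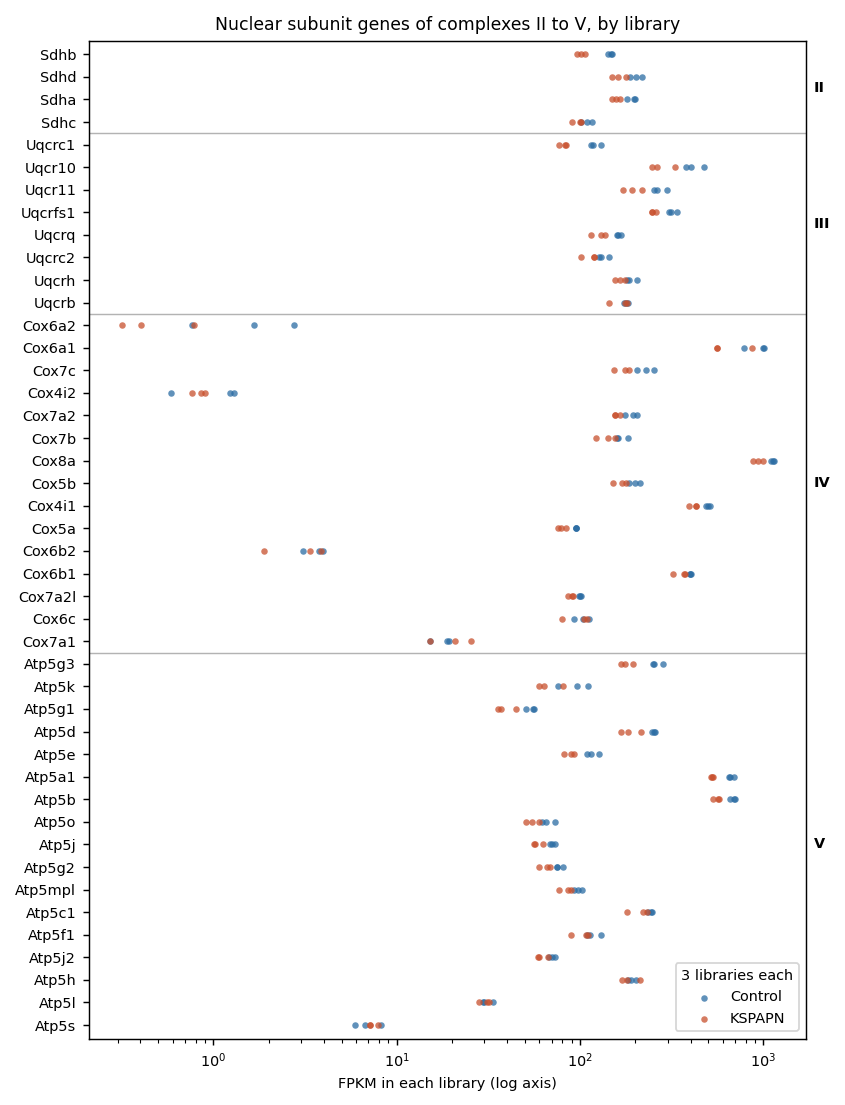
FPKM in each library on a log axis for the 44 members tested, one line per gene, grouped by complex, with Control and KSPAPN as separate colours and 3 points each. In 31 genes all KSPAPN points lie left of all Control points, which held for 13.5% of all genes tested. The 4 isoforms known from other tissues (*Cox4i2*, *Cox6a2*, *Cox6b2* and *Cox7a1*) have the lowest levels of complex IV.

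Levels per length differed widely within each complex. In Control, mean FPKM ran from 109 ± 7.28 for *Sdhc* to 202 ± 15.6 for *Sdhd* in complex II, where *Sdhd* and *Sdha* (192 ± 11.0) did not differ beyond their spread. In complex III it ran from 121 ± 8.34 for *Uqcrc1* to 417 ± 49.7 for *Uqcr10*. *Atp5b* (683 ± 23.0) and *Atp5a1* (666 ± 22.9) led complex V and did not differ beyond their spread, as *Atp5j* (70.6 ± 2.42) and *Atp5j2* (70.4 ± 2.80) did not either. With total counts taken as library sizes, the lengths behind these FPKM exceeded the longest annotated transcript by a median factor of 1.32. How these lengths were set was not tested, and comparisons of FPKM between genes depend on them.

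The share of each isoform in the summed FPKM of its set was compared for 9 isoforms. *Cox4i2* made up 0.206% of the *Cox4i* set in Control and 0.202% in KSPAPN, *Cox6a2* 0.179% and 0.0830% of the *Cox6a* set, and *Cox6b2* 0.889% and 0.863% of the *Cox6b* set. *Cox7a2* was 59.7, 63.0 and 63.0% of the *Cox7a* set in the Control libraries and 58.3, 59.2 and 59.6% in the KSPAPN libraries. *Cox7a1* was 6.496, 4.92 and 5.79% in Control and 7.80, 5.81 and 9.25% in KSPAPN, with KSPAPN replicate 2 inside the Control range.

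Within the c ring genes, *Atp5g3* was 67.4, 66.7 and 65.9% in Control and 63.3, 62.3 and 64.4% in KSPAPN, and *Atp5g2* was 19.1, 19.9 and 19.7% and 22.2, 24.4 and 21.9%. The groups did not overlap for these shares, while those of *Atp5g1*, 13.4, 13.4 and 14.4% and 14.5, 13.3 and 13.6%, did. In two-sided exact permutation tests p was 0.1 for *Cox7a2*, *Atp5g2* and *Atp5g3* (0.3 after Benjamini-Hochberg over the 9 shares), the smallest p that 3 libraries against 3 allow, and 0.2 or more for the other 6. The design could not reach p under 0.05 for any share. After removal of a trend against GC content, the log2 fold change of *Atp5g2* was 0.13 and that of *Atp5g3* -0.37.

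**Figure D3:**
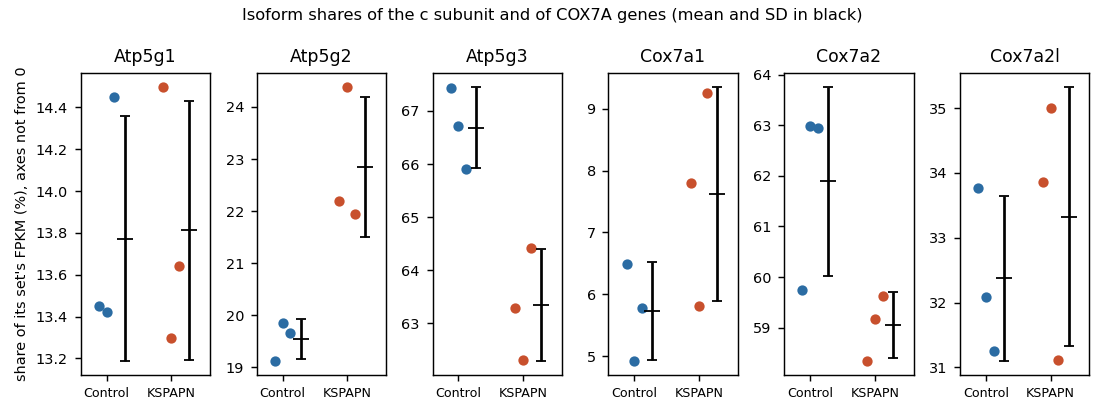
Share of each isoform in the summed FPKM of its set (%), by library, for the c subunit genes and the *Cox7a* genes, with mean and SD in black and vertical axes that do not start at 0. KSPAPN points lie below Control for *Atp5g3* and *Cox7a2*, above it for *Atp5g2*, and overlap it for the other isoforms.

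Summed over its genes, each complex was lower in every KSPAPN library. Complex II took 1772 ± 89.6 CPM (SD, n = 3) in Control and 1436 ± 56.7 in KSPAPN, and complex III 2447 ± 48.9 and 1894 ± 32.2. Complex IV took 4087 ± 104 and 3385 ± 95.7 CPM, and complex V 9086 ± 196 and 7385 ± 93.5. The ratios of KSPAPN to Control were 0.811, 0.774, 0.828 and 0.813, and a difference between complexes was not tested. These CPM include the TMM factors, with a ratio of 0.811 over all members tested. As a plain share of all counts, the members took 1.70 ± 0.0578% in Control and 1.44 ± 0.0524% in KSPAPN, a ratio of 0.850. With any 1 library left out, the median log2 fold change of each complex moved by less than 1.5 times.

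The mitochondrially encoded subunits of complexes III to V did not show the same sign. Their sum was 45809 ± 3083 CPM in Control and 51645 ± 10248 CPM in KSPAPN, with overlapping groups, in libraries enriched for polyadenylated RNA. Of the 6 genes, 5 were higher and 1 was lower. In the main edgeR fit 0 passed an adjusted or an unadjusted p, and with DESeq2 0 passed an adjusted p. With a trend against GC content and length removed, 2 were higher at an unadjusted p under 0.05, where 9.24% of all genes were. In that fit 0 passed an adjusted p. *mt-Atp6*, for the proton channel subunit of complex V, had a log2 fold change of 0.48 (SE 0.23, adjusted p = 0.299), and its neighbour *mt-Atp8* one of 0.13 (SE 0.31). For *mt-Cytb* of complex III and for *mt-Co1*, *mt-Co2* and *mt-Co3* of complex IV it was 0.26, 0.12, 0.25 and -0.36. For complex III, the Control libraries had 6.71, 7.77 and 7.42 mitochondrially encoded reads per nuclear read and the KSPAPN libraries 8.60, 13.7 and 11.4, with no overlap. For complex IV the ratio was 6.17, 7.40 and 6.88 against 7.07, 10.4 and 9.27, with overlap. For complex V it was 0.0115, 0.0168 and 0.0157 against 0.0169, 0.0350 and 0.0229, where KSPAPN replicate 1 was just above the highest Control library. Reads were uneven among these genes. In Control, mean FPKM was 17277 for *mt-Co1* and 15180 for *mt-Cytb*. It was 232 for *mt-Co2*, 271 for *mt-Co3*, 184 for *mt-Atp6* and 19.5 for *mt-Atp8*. The sum thus rests mainly on *mt-Co1* and *mt-Cytb*, and levels of the ratio cannot be compared between complexes. Whether reads of the other genes were lost in mapping or counting was not tested.

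**Figure D4:**
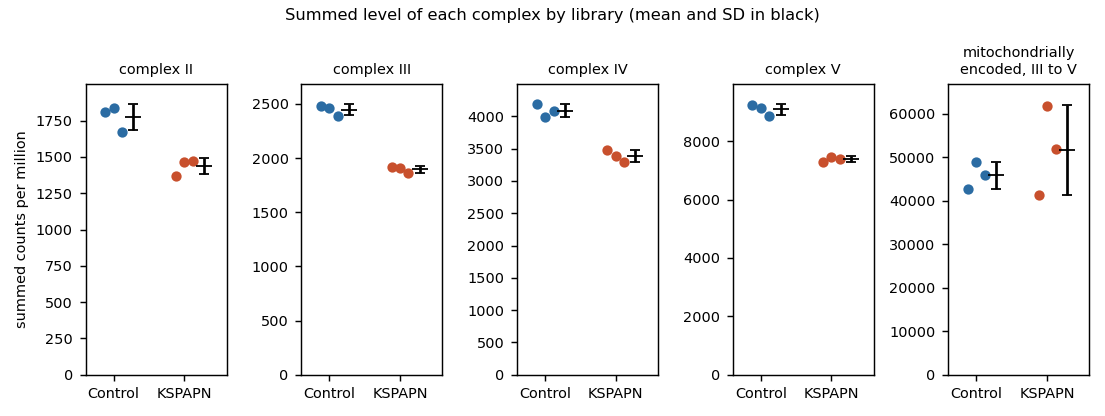
Summed CPM by library for the nuclear genes of each complex and for the mitochondrially encoded subunits of complexes III to V, with mean and SD in black and axes that start at 0. The nuclear sums of KSPAPN lie below Control in all 4 complexes, and the mitochondrially encoded sums overlap.

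The other genes of the pathway were read from lists. Of 42 assembly and partner genes 40 were tested, 33 were lower and 7 higher, with a median of -0.16, and 15, or 37.5%, were lower at an unadjusted p under 0.05, where 11.2% of all genes were. *Cyc1*, for cytochrome c1 of complex III, fell, from 186, 185 and 185 FPKM in Control to 138, 126 and 132 FPKM in KSPAPN, a log2 fold change of -0.48 (SE 0.087, edgeR adjusted p = 0.0222), and was the only one to pass an adjusted p, where 2.25% of all genes did, so this count was near the background. *Usmg5* had a log2 fold change of -0.29 (SE 0.083, edgeR adjusted p = 0.0946). The complex I list took the 37 genes with a symbol of Nduf followed by a, b, c, s or v and a digit. Complex I feeds electrons from NADH into the chain. The list also holds *Ndufa4* (-0.13), counted with the partner genes too, and its relative *Ndufa4l2* (-0.032). Its genes had a median of -0.31, with 35 lower, 8 past an adjusted p and 25 past an unadjusted p. The lowest of them were *Ndufa6* (-0.56, SE 0.12, adjusted p = 0.0403) and *Ndufa2* (-0.53, SE 0.10, adjusted p = 0.0267). The complexes II to V medians of -0.25 to -0.35 lie on both sides of this value.

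Several other measures moved with the members. Of the 80 cytosolic ribosomal protein genes, whose transcripts are short like those of the members (median lengths 1076.5 and 966.5 bases, against 3147.5 over all genes tested), 73 were lower, with a median of -0.21, 2 past an adjusted p (*Rpl30*, -0.44, and *Rps18*, -0.44) and 35, or 43.75%, lower at an unadjusted p. The 2 are near the 2.25% of all genes called lower, and 11.2% of all genes were lower at an unadjusted p. The proximal tubule list had 10 of its 12 genes lower (median -0.24), and its summed level was 13964 to 16389 CPM in Control and 12129 to 13019 CPM in KSPAPN. *Slc7a13*, *Miox* and *Slc22a6* of this list fell, with log2 fold changes of -1.46, -0.60 and -0.46. Of 11 markers of the thick limb, distal tubule and collecting duct, 6 were lower and 1, *Slc12a1* of the thick limb, rose (0.52, adjusted p = 0.0437), with summed levels of 5011 to 5519 CPM and 5064 to 6291 CPM. All 6 podocyte markers had higher values (217 to 340 and 302 to 427 CPM) and 0 passed an adjusted p with edgeR or DESeq2, with 1 past an unadjusted p. The 5 endothelial markers were at 195 to 245 CPM in both groups. Adipocyte markers summed to at most 1.15 FPKM and skeletal muscle markers to at most 1.40 FPKM. Hepatocyte markers summed to 13.5 to 23.7 FPKM, and all these sums overlapped between the groups. Of the hepatocyte list, *Cps1* had 0, 0 and 0 reads in Control and 1, 14 and 31 in KSPAPN. *Ahsg* had 1, 0 and 1 reads in Control and 2, 14 and 15 in KSPAPN. *Alb*, *Apob*, *Fga* and *Fgb* overlapped between the groups. The part of cell type proportions in the members' difference was not tested.

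Among the 38 members with a mean count of at least 1000, those with GC-rich transcripts had the lower log2 fold changes (Pearson r = -0.40, Spearman rho = -0.40 across genes, which share the same 6 libraries). The median was -0.21 in the 12 genes of lowest GC content, -0.28 in the 14 of the middle and -0.38 in the 12 of the highest. Without KSPAPN replicate 1 the outer medians were -0.14 and -0.40. When a trend against GC content and transcript length was removed from each library, the medians of the 3 groups were -0.20, -0.14 and -0.16.

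After this removal 35 of the 44 members were lower, where 42.5% of all genes were, and the median was -0.15, against 0.043 over all genes. At an unadjusted p under 0.05, 17 members were lower, where 9.15% of all genes were, and 1 was higher, *Cox7a1*, where 9.24% of all genes were. At an adjusted p under 0.05, *Uqcrc1* (-0.45, adjusted p = 0.0164) and *Atp5g1* (-0.50, adjusted p = 0.0477) were lower, where 1.87% of all genes were, and 0 members were higher, where 0.612% of all genes were. The adjusted p of *Sdhb* with edgeR was 0.0552 and that of *Atp5g3* 0.101. The medians of complexes II, III, IV and V were -0.20, -0.20, -0.057 and -0.15, so that complex IV came closest to the rest of the genes. The sign turned for 7 members, of which *Cox4i1*, *Cox6b1*, *Cox6b2* and *Cox8a* moved to 0.0069, 0.033, 0.021 and 0.019, and *Atp5g2*, *Atp5h* and *Atp5mpl* to 0.13, 0.094 and 0.02. *Cyc1* moved to -0.22, and 0 of the partner and 0 of the ribosomal protein genes then passed an adjusted p, with 6 and 13 lower at an unadjusted one. The median of complex I moved to -0.16, the ribosomal protein genes to -0.058, and the proximal tubule markers to -0.23. Whether the trend was technical was not tested.

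**Figure D5:**
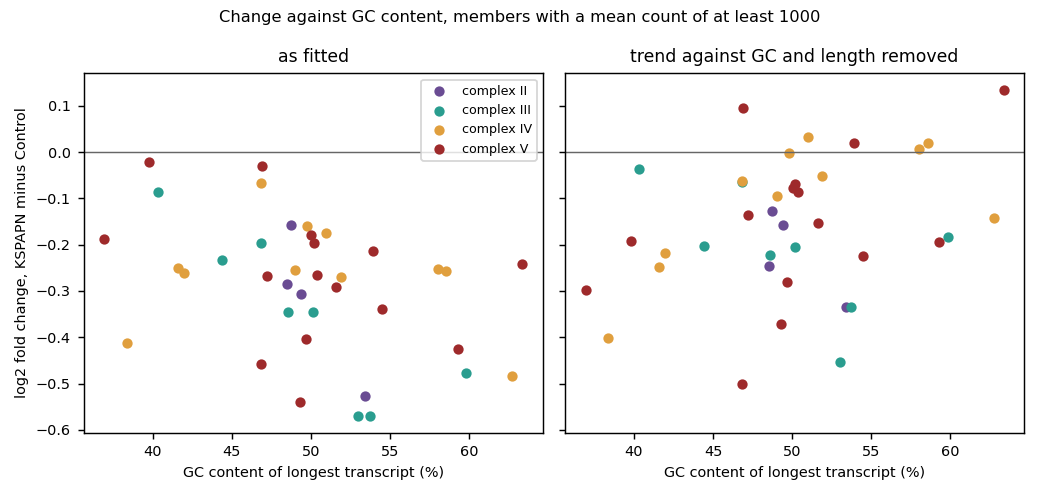
Log2 fold change (KSPAPN minus Control) against GC content of the longest transcript (%) for the 38 members with a mean count of at least 1000, coloured by complex, as fitted (left) and with the trend against GC content and length removed (right). On the left all points lie below 0 and are lower at high GC content, and on the right the medians of the lowest and highest GC groups are -0.20 and -0.16.

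Some members share sequence with other loci. Of each transcript's 100-base stretches, 19.7% in *Cox7c*, 16.2% in *Atp5h*, 9.90% in *Cox7a2l*, 8.09% in *Cox5b* and 6.20% in *Atp5g1* also occur in another gene, in most cases a processed pseudogene, so that their counts are less certain. *Cox6c* and *Atp5j* overlap *Vps13b* and *Gabpa* on the opposite strand, whose counts were 18.8% and 23.1% of theirs, and without stated strandedness reads from such overlaps cannot be told apart. *Sdhb*, *Uqcrc1* and *Atp5g3* share no such stretch.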

How the data were processed

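Whole-kidney RNA of 3 Control and 3 KSPAPN libraries, each a pool of 3 mice, was enriched for mRNA with oligo(dT) beads and sequenced. The authors deposited 1 table with a raw read count and an FPKM per gene and library. Counts were whole numbers without normalization, and FPKM were counts divided by gene length and by 1 factor per library. Relative to Control replicate 1, this factor was 0.936 and 0.948 in Control replicates 2 and 3. It was 1.26, 0.986 and 1.12 in the KSPAPN libraries, and so was not proportional to the total counts. The submitters' processing notes name STAR 2.5, TopHat, HTSeq 0.6.1, DESeq2 and edgeR, with no role or order. The build, annotation and strandedness behind the counts were not given in the sources used here. Columns were assigned to samples by group and replicate number in their names.

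Gene identifiers were matched to GENCODE M21 (GRCm38) for 54495 of 54532 genes. Counts were fitted over all genes with edgeR 4.0.16 in R 4.3.3, using TMM factors, filterByExpr (at least 10 reads, and 15 in total), the two-sided quasi-likelihood test and Benjamini-Hochberg adjustment over 16017 genes. Total counts were 17183358 to 20871173 per library, and intervals and limits cover counting error only. As each library is a pool, p-values measure the spread between pools. Isoform shares were compared by two-sided exact permutation tests over 20 arrangements. Alternatives were DESeq2 1.42.0, limma 3.58.1 on log2(FPKM + 1) and log2(FPKM + 0.1), other scalings, no filter, a trend against GC content and length removed (natural splines with 5 degrees of freedom, genes with mean log2 CPM above 3), a replicate block, and each library left out. The fits were run on simulated counts with known folds, which were larger than the differences of most members. Power for differences as small as those of most members was therefore not measured. Tables and figures were made with Python 3.11.15, pandas 2.3.3 and matplotlib 3.10.9.

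Given with the value in every library were members past an adjusted p of 0.05, core subunits, isoform sets and, in each complex, the members with the lowest and highest log2 fold change. Of the partner lists, genes past an adjusted p were named (at most 2 per direction for complex I and ribosomal protein genes), and all mitochondrially encoded subunits. Other members are named for completeness, and genes outside these rules after their values were seen. Ribosomal S6 kinases, which share the symbol pattern, were left out of the ribosomal list. Members and lists were chosen with earlier results of these data known.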

Additional observations from a re-analysis of the deposited data

How the results depend on the processing

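Against 3 members called lower at an adjusted p under 0.05, no filter on low counts gave 15 and DESeq2 14, where 3.53% and 5.11% of all genes were, and leaving out 1 library gave 0 to 10. Against 29 lower at an unadjusted p, total counts alone gave 18, removal of the trend against GC content and length 17, and leaving out 1 library 18 to 28. The removal also gave 1 higher member. The main fit did not pair same-numbered libraries, and whether they belong together was not settled. The correlations of their deviations were 0.0518, 0.144 and 0.169, which is low, although every library correlated best with its own number. The replicate block gave 9 called lower, and with the trend removed 5, where 4.40% and 3.07% of all genes were, with 18 lower and 1 higher at an unadjusted p. Medians of complexes II, III and V were -0.23, -0.28 and -0.20 with total counts alone. Medians of complexes II to V were -0.20, -0.20, -0.057 and -0.15 with the trend removed, and -0.20, -0.21, -0.051 and -0.15 with the replicate block too. With 1 library left out they were -0.34 to -0.24, -0.37 to -0.30, -0.26 to -0.21 and -0.27 to -0.24. With the trend removed, the sign of the log2 fold change turned for *Cox4i1* (0.0069, and 0.0058 with the block), *Cox6b1* (0.033 and 0.032), *Cox8a* (0.019 and 0.020), *Atp5g2* (0.13 and 0.13), *Atp5h* (0.094 and 0.093), *Atp5mpl* (0.020 and 0.017) and *Cox6b2* (0.021 without the block). It turned for *Atp5h* (0.035) and *Atp5l* (0.046) with total counts alone. With 1 library left out it ran from -0.43 to 0.024 for *Cox6b2* (positive without KSPAPN replicate 2), -0.14 to 0.019 for *Uqcrb* and -0.15 to 0.077 for *Cox6c* (positive without KSPAPN replicate 1), -0.12 to 0.049 for *Atp5h* and -0.055 to 0.041 for *Atp5l* (positive without KSPAPN replicate 1 or Control replicate 2), and -0.0067 to 0.24 for *Atp5s* (negative without Control replicate 1). Differences in share (percentage points, KSPAPN minus Control) ran from -0.048 to 0.021 for *Cox4i2* with 1 library left out, from -0.12 to 0.15 for *Cox6b2* and from -0.30 to 0.38 for *Atp5g1*. Of all genes at an unadjusted p under 0.05, 40.2% were higher, and 62.7% with total counts alone and 50.3% with the trend removed. DESeq2 called 5 partner, 17 complex I and 12 ribosomal protein genes lower, where edgeR called 1, 8 and 2. The causes were not tested. Genes under about 100 reads, such as *Cox6a2* and *Cox4i2*, are limited by depth.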
